A study of Mus musculus with 10 samples.

Results

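The subunits and partners of the Polycomb repressive complexes were followed in RNA-seq of mouse neural stem cells with and without the E147A mutation of SMCHD1. The genes were Ezh1, Ezh2, Eed, Suz12, Jarid2, Ring1, Rnf2, Pcgf3, Pcgf5 and Bmi1. They were taken from the deposited count table by their gene symbol, and all 10 were found among its 52632 genes. All 10 passed the filter on low counts that left 17110 genes for testing.

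Polyadenylated RNA came from adherent cultures on laminin, each grown with EGF and FGF from the cortices of 1 embryo at embryonic day 14.5. The 4 groups were female SMCHD1 E147A/+ (n = 2), female SMCHD1 +/+ (n = 2), male SMCHD1 E147A/+ (n = 3) and male SMCHD1 +/+ (n = 3). The mutant allele was Smchd1 GFP-E147A, so the tag and the mutation cannot be told apart, and the second allele was wild type. All 4 female embryos, of both genotypes, carried XistdeltaA, which per the labels makes the paternal Castaneus (Cast) X the inactive one. Males were XY. Per the labels every embryo had a Castaneus father and a mother that was itself a 129/C57 cross. Litter 3 supplied both female +/+ embryos, while female E147A/+ replicate 1 was of litter 1 and replicate 2 of litter 2, so litter and genotype cannot be told apart in females. The litters of the male replicates were 1, 1 and 3 for E147A/+ and 4, 1 and 3 for +/+.

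Polycomb proteins keep developmental genes silent through a pair of histone marks. Polycomb repressive complex 2 (PRC2) is built from EED, SUZ12 and the methyltransferase EZH2 or EZH1 and trimethylates lysine 27 of histone H3. Polycomb repressive complex 1 (PRC1) pairs the ubiquitin ligase RING1 or RNF2 with a PCGF protein and ubiquitinates histone H2A. On the inactive X, Xist RNA with the RNA-binding protein HNRNPK brings in PRC1 that contains PCGF3 or PCGF5, and SMCHD1 joins later, downstream of the H2A mark. The measurements here are of messenger RNA, so they speak to the supply of transcripts of the upstream complexes and not to the marks themselves.

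Library totals ran from 20648916 to 44519020 counts. Counts were scaled to library size by trimmed mean of M values (TMM) and are given as CPM, counts scaled to a common library size. Smchd1 was looked at as a check of the labels and was at -0.42 (SE 0.15) on the log2 scale in E147A/+ over both sexes. This did not pass edgeR's quasi-likelihood test (adjusted p 0.786), so total Smchd1 neither bore out nor contradicted the genotype labels. The neural stem cell markers summed to between 4771 and 6809 CPM in every library, while 4 microglial markers summed to at most 2.80 CPM and 4 endothelial markers to at most 3.75. Neuronal markers summed to between 10.9 and 84.6 CPM. In such bulk cultures, fewer cells of a type and less RNA per cell cannot be told apart. A set of 12 proliferation genes (Aurkb, Bub1, Ccna2, Ccnb1, Cdk1, Mcm2, Mcm3, Mcm5, Mki67, Pcna, Rrm2 and Top2a) was summarised as a cell cycle score, the mean z-score of their log2 CPM. Male E147A/+ 3 and male +/+ 1 stood apart with scores of -1.50 and -1.61, against -0.204 to 1.16 in the other 8 libraries.

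Ezh2 varied with that score over all 10 libraries and Eed varied with Ezh2. Suz12 encodes their partner in the complex, and Ezh1 encodes the alternative to EZH2. Promoters are therefore shown for these 4 core PRC2 genes. Each runs from 250 bases before to 50 after the RefSeq start site and is written 5′ to 3′ on the strand of the gene, in build GRCm38.p6. Capitals mark a match to E2F-type letters, searched as TTTGGCGC, TTTCGCGC, TTTCCCGC and TTTGCCGC on both strands. Ezh2 lies at chr6:47594981-47595280 on the minus strand, Eed at chr7:89980927-89981226 on the minus strand, Suz12 at chr11:79992856-79993155 on the plus strand and Ezh1 at chr11:101226414-101226713 on the minus strand.
Ezh2: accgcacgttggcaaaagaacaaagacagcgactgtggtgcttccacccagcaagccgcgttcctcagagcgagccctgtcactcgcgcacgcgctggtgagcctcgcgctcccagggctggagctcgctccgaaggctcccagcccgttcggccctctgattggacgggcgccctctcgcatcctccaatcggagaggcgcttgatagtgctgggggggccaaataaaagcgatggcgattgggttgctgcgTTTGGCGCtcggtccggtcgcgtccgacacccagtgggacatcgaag
Eed: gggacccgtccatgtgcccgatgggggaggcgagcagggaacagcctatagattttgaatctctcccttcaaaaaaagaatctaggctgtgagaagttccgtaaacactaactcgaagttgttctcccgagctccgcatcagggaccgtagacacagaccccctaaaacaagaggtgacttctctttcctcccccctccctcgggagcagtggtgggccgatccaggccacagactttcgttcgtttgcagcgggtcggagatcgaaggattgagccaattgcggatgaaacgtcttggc
Suz12: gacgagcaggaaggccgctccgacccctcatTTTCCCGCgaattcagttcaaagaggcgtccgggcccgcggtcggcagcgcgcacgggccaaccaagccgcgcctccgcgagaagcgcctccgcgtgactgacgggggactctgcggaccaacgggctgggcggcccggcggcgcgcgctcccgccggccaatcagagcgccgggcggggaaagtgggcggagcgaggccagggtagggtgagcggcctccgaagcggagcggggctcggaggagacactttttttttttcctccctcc
Ezh1: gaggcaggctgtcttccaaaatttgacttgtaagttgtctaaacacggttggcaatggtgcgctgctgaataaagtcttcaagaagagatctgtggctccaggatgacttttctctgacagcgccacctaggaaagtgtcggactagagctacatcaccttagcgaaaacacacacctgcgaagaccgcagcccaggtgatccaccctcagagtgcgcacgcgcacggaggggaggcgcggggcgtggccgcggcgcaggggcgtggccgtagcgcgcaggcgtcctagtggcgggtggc
The Ezh2 match began at position 4 after the start site and the Suz12 match at position -219. No other promoter of the 10 genes held these letters in this window. All 10 genes had an entry, 13 promoters in all. Over the 32851 RefSeq promoters, 2.26% held a match, and among the 10 proliferation genes with an entry 3 did. The letters CCAAT, searched on both strands, stood in 37.4% of all promoters and in 6 of the 13, namely those of Ezh2, Eed and Suz12, both of Jarid2 and 1 of the 3 of Pcgf5. They stood in all 10 of the proliferation genes. A match is a run of letters and no evidence of binding.

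**Figure D1:**
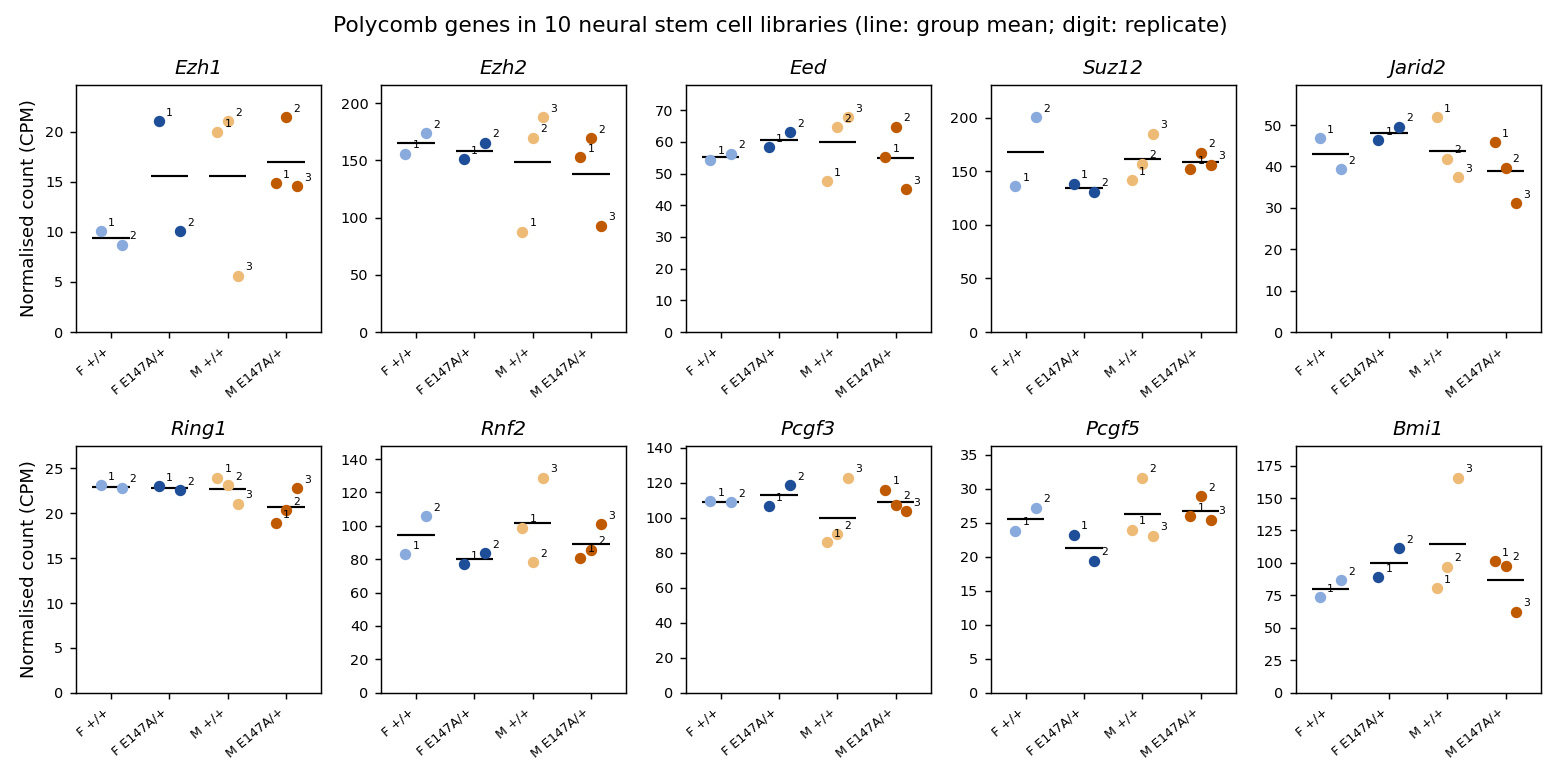
Normalised count (CPM, vertical axes from 0) of the 10 Polycomb genes in each library, with 1 point per embryo culture, its replicate number beside it and a line at the group mean. Ring1 stayed between 18.9 and 23.9 CPM, whereas Ezh1 ran from 5.64 to 21.5 and Ezh2 from 87.7 to 187.8 within the same 10 cultures.

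All core PRC2 genes were expressed in every culture. Ezh2, the methyltransferase typical of dividing cells, had 151.0 and 165.5 CPM in female E147A/+ and 155.9 and 173.7 in female +/+. Among males the E147A/+ values were 152.7, 169.5 and 93.1 CPM and the +/+ values 87.7, 169.8 and 187.8. The groups overlapped in both sexes, and the low values were the male E147A/+ 3 and male +/+ 1 libraries. Eed, which binds trimethylated lysine 27 and activates the enzyme, had 58.2 and 63.1 CPM in female E147A/+ and 54.4 and 56.3 in female +/+. Male values of Eed were 55.2, 64.8 and 45.01 CPM in E147A/+ and 47.6, 64.7 and 67.8 in +/+. The same male libraries were lowest for Eed as for Ezh2. Suz12, the scaffold subunit, had 138.5 and 131.0 CPM in female E147A/+ and 135.8 and 200.5 in female +/+. In males Suz12 lay between 151.9 and 167.5 CPM in E147A/+ and between 141.5 and 185.0 in +/+, so male +/+ 1 was again the lowest of its group but male E147A/+ 3, at 156.3, was not.

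Ezh1, the EZH2 paralog that prevails in resting cells, was the least steady. It had 21.1 and 10.1 CPM in female E147A/+ and 10.1 and 8.71 in female +/+. Male values of Ezh1 were 14.8, 21.5 and 14.6 CPM with the mutation and 19.9, 21.1 and 5.64 without. Its highest and lowest libraries were both male, and neither sex separated the genotypes. Jarid2, an accessory subunit that helps PRC2 find its targets, lay between 31.2 and 51.9 CPM, with male E147A/+ 3 lowest and male +/+ 1 highest.

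Among the PRC1 genes, the ligase subunit Rnf2 had 76.9 and 83.6 CPM in female E147A/+ and 82.9 and 105.6 in female +/+. Male Rnf2 values were 80.8, 85.8 and 101.1 CPM with the mutation and 99.0, 78.2 and 128.7 without, so the groups overlapped. Its paralog Ring1 spanned 18.9 to 23.9 CPM, the narrowest range of the 10 genes. Pcgf3 and Pcgf5 encode the PCGF partners on the Xist path. Pcgf3 had 106.7 and 118.7 CPM in female E147A/+, 109.4 and 108.9 in female +/+, and male values of 116.0, 107.5 and 103.7 with the mutation and 86.1, 90.6 and 122.7 without. Pcgf5 had 23.2 and 19.4 CPM in female E147A/+, 23.9 and 27.2 in female +/+, and lay between 25.5 and 28.9 in mutant and between 23.1 and 31.6 in wild-type males. Bmi1, the PCGF subunit of canonical PRC1 that neural stem cells need to self-renew, had 89.0 and 111.4 CPM in female E147A/+ and 73.8 and 86.7 in female +/+. In males Bmi1 had 101.5, 97.8 and 62.3 CPM in E147A/+ and 80.7, 97.1 and 165.5 in +/+, so its highest and lowest values were both of litter 3.

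Levels of different genes were compared per kilobase of annotated exon. Suz12 led with a mean of 31.7 ± 4.53 CPM per kilobase (SD, n = 10), followed by Bmi1 at 24.3 ± 7.07, Ezh2 at 22.6 ± 5.03 and Rnf2 at 22.4 ± 3.96. The ranges of each neighbouring pair among these 4 overlapped. Eed followed at 15.1 ± 1.97 CPM per kilobase, with a range wholly below that of Rnf2, and then Pcgf3 at 11.2 ± 1.21, Ring1 at 6.84 ± 0.483 and Jarid2 at 4.43 ± 0.647. Pcgf5 at 2.00 ± 0.269 and Ezh1 at 1.98 ± 0.796 CPM per kilobase were last, and their ranges overlapped. The order depends on which length is used. Per kilobase of coding sequence Pcgf3, whose exons are mostly untranslated, was first at a mean of 124.9 and Ezh1 was still last at 6.34.

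Per kilobase of exon, Ezh2 exceeded Ezh1 in every library by 14.4 ± 9.75 times (SD, n = 10). The ratio ran from 4.90 in male +/+ 1 to 37.1 in male +/+ 3, so 2 cultures of the same genotype and sex held the extremes. Rnf2 exceeded Ring1 by 3.29 ± 0.639 times, or 4.34 times per kilobase of coding sequence. Pcgf3 exceeded Pcgf5, the other PCGF of the Xist path, by 5.73 ± 1.21 times per kilobase of exon and 3.88 ± 0.820 times per kilobase of coding sequence.

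The main comparison asked whether the supply of Polycomb transcripts differed when 1 Smchd1 allele was mutant. None of the 10 genes passed an adjusted p of 0.05 over both sexes, where 0.0818% of all genes tested passed, 14 of 17110. None of the 10 had an unadjusted p under 0.05, against 5.9% of all genes. By edgeR's quasi-likelihood test with Benjamini-Hochberg adjustment, the lowest adjusted p of the 10 was 0.824. DESeq2 and limma-voom also called 0 of the 10. The median log2 fold change of the 10 genes was -0.05 and that of all genes tested -0.01.

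The intervals show how large a change these cultures could have hidden. Suz12 had a log2 fold change of -0.17 (SE 0.14, 95% interval -0.48 to 0.14) and Ring1 of -0.07 (SE 0.13, -0.36 to 0.21). For Pcgf3 it was 0.09 (SE 0.13, -0.20 to 0.37) and for Pcgf5 -0.11 (SE 0.15, -0.44 to 0.21), so for the Xist-path PCGF genes the fold lay between 0.873 and 1.29 and between 0.737 and 1.16. Leaving out single libraries moved the log2 estimate of Pcgf3 between 0.04 and 0.17 and that of Pcgf5 between -0.17 and -0.04. Eed had 0.00 (SE 0.15, -0.32 to 0.33), Jarid2 -0.01 (SE 0.15, -0.35 to 0.33) and Rnf2 -0.21 (SE 0.16, -0.56 to 0.14). The intervals were wider for Bmi1, at -0.04 (SE 0.22, -0.53 to 0.46), and Ezh2, at -0.08 (SE 0.23, -0.60 to 0.44). With litter as a covariate Ezh2 was at -0.50 (adjusted p 0.98 in edgeR's test). In the same fit the estimates of Eed and Rnf2 changed sign, to -0.22 and 0.038. The female part of that fit takes its litter term from males, as litter and genotype cannot be told apart in females. Ezh1 was the least certain at 0.43 (SE 0.37, -0.39 to 1.24), an interval that takes in a fold from 0.764 to 2.37. Changes of that size in Ezh1 were therefore not detectable here.

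**Figure D2:**
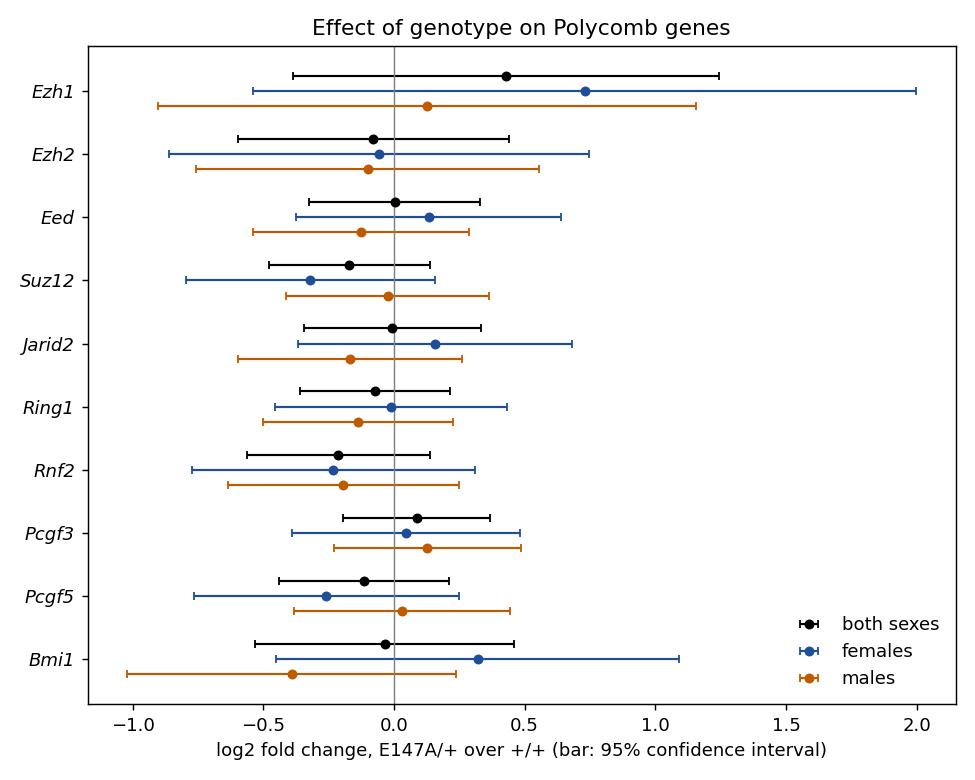
Log2 fold change of E147A/+ over +/+ for each Polycomb gene, over both sexes (n = 5 against 5), in females (2 against 2) and in males (3 against 3), with 95% confidence intervals from the quasi-likelihood fit over all 10 libraries. Each interval crosses 0, and the widest are those of Ezh1.

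In females 0 of the 10 genes passed, against 0.0117% of all genes (2 of 17110), and edgeR's quasi-likelihood test gave the 10 a lowest adjusted p of 0.964. An unadjusted p under 0.05 was found for 0 of the 10 and for 746 of all genes. Both E147A/+ libraries were above both +/+ libraries for Eed and Bmi1, and below them for Pcgf5. That is 2 of 10 higher against 21.8% of all genes, and 1 of 10 lower against 19.3%, so such separation was no more frequent among the Polycomb genes than elsewhere. The female log2 fold changes were 0.13 (SE 0.23) for Eed, 0.32 (SE 0.34) for Bmi1 and -0.26 (SE 0.23) for Pcgf5. The Bmi1 estimate was 0.16 to 0.48 leaving out single libraries. It was 0.11 with litter as a covariate. In that fit the litter term comes from males, and female E147A/+ 2, alone in its litter, drops out. The fit therefore does not tell litter from genotype in females. Ezh1 had the largest female estimate, 0.73 (SE 0.57), which rests on female E147A/+ 1 at 21.1 CPM beside 10.1 in its replicate, and it was 0.11 without that library and 1.18 without the other.

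In males 0 of the 10 genes passed, against 0.0234% of all genes (4 of 17110), and edgeR's test gave each an adjusted p of 1. An unadjusted p under 0.05 was found for 0 of the 10 and for 589 of all genes. No gene of the 10 separated the male genotypes, where 3.2% of all genes were higher and 3.96% lower in every E147A/+ library. Litters 1 and 3 held males of both genotypes and gave unlike differences. For Bmi1, E147A/+ exceeded +/+ by 0.04 in log2 CPM within litter 1 (2 embryos against 1) and the difference was -1.41 within litter 3 (1 against 1). For Ezh2 the corresponding differences were -0.08 and -1.01, for Eed -0.11 and -0.59, and for Ezh1 -0.24 and 1.36. The litter 3 embryos were male E147A/+ 3, with a cell cycle score of -1.50, and male +/+ 3, with 1.01. The part of that score in these differences was not tested. With 1 embryo of a genotype these differences have no replicate check.

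The difference of the female and the male genotype effect was called for 0 of the 10 genes, against 0.0% of all genes, and all 10 adjusted p-values were 0.999 in edgeR's test. At an unadjusted p under 0.05 the counts were 0 of the 10 and 314 of 17110 genes. Female +/+ and male +/+ cultures differed in 0 of the 10 genes, against 0.0292% of all genes (5 of 17110) in edgeR's test, and an unadjusted p under 0.05 was found for 0 of the 10 and 282 of all genes. None of the 10 genes lies on a sex chromosome.

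Cultures of 1 group differed from each other in a gene-specific way. The standard deviation of log2 CPM about the group means was 0.72 for Ezh1, 0.44 for Ezh2 and 0.40 for Bmi1. Each of these exceeded at least 85.0% of the 500 genes of most similar level, with 86.4% for Ezh1 and 89.0% for Ezh2. At the other end, Ring1 had 0.10 and exceeded only 1.6% of the genes of its level, Pcgf5 had 0.18 (15.8%) and Pcgf3 0.17 (27.4%). Suz12, Eed and Jarid2, at 0.20 to 0.23, and Rnf2, at 0.25, lay between 39.6% and 58.6%. The Polycomb genes were thus spread over nearly the whole range of variability at their level. The catalytic paralogs Ezh1 and Ezh2 were both among the more variable. For Ezh2 the spread rests on male E147A/+ 3 and male +/+ 1, at 93.1 and 87.7 CPM, beside 151.0 to 187.8 in the other libraries.

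**Figure D3:**
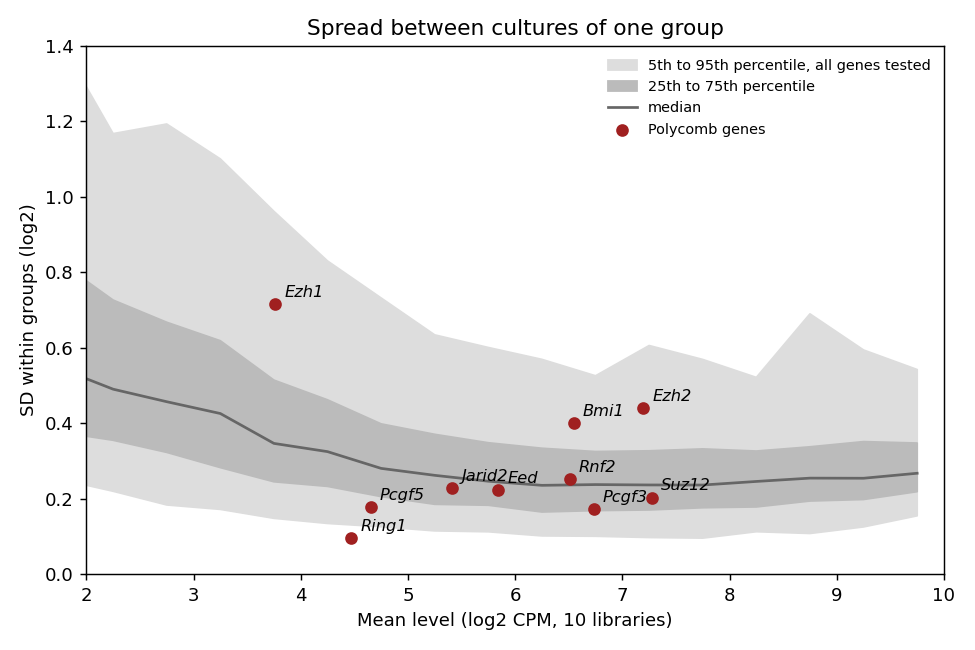
Standard deviation of log2 CPM about the group means (vertical axis) against mean level (horizontal axis, log2 CPM over 10 libraries), with the 10 Polycomb genes as points over the percentile bands of all 17110 genes tested. Ezh1, Ezh2 and Bmi1 lie above the central band of genes of their level, and Ring1 lies below the band from the 5th to the 95th percentile, as only 1.6% of genes of its level varied less.

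Ezh2 varied with the proliferation genes across cultures. Its Pearson r with the cell cycle score was 0.942 over the 10 libraries (permutation p = 0.00033, adjusted p = 0.0181 over 55 relations), and Spearman's rho was 0.891 (permutation p = 0.0012, adjusted p = 0.066). Ezh2 and Eed varied together with r = 0.894 (permutation p = 0.00078, adjusted p = 0.0214) and rho = 0.782 (adjusted permutation p = 0.142). These were the only relations of the 55 past the threshold by Pearson's r, and 0 passed by Spearman's rho. Much of both rests on male E147A/+ 3 and male +/+ 1, where the score, Ezh2 and Eed were all low. Without these libraries, and with the score recomputed, r was 0.763 for Ezh2 and the score (n = 8, permutation p = 0.0284, adjusted p = 0.168) and 0.718 for Ezh2 and Eed (permutation p = 0.0527, adjusted p = 0.212). The relation of Ezh2 to the score therefore kept its direction but did not pass the threshold among the 8 libraries that lie together. Eed itself followed the score with r = 0.766 over all libraries and 0.171 (permutation p = 0.664) without the 2 that stand apart. No litter holds over 4 libraries, so no correlation within a litter is given.

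Ezh1 ran the other way. Its r with the score was -0.586 (permutation p = 0.0768, adjusted p = 0.331) and rho -0.527, which did not pass the threshold, and r was -0.766 without the 2 libraries that stand apart (n = 8, permutation p = 0.0306, adjusted p = 0.168). Ezh1 was lowest, at 5.64 and 8.71 CPM, in male +/+ 3 and female +/+ 2, the cultures with the highest scores of 1.01 and 1.16. It was not highest in the cultures with the lowest scores, which had 14.6 and 19.9 CPM. Suz12, the subunit shared by all PRC2, had r = 0.451 with the score (permutation p = 0.187, adjusted p = 0.504), and the PRC1 ligase genes Rnf2 and Ring1 had 0.102 and -0.188 (permutation p = 0.79 and 0.628). These values were higher without the 2 libraries that stand apart. There r with the recomputed score was 0.798 for Rnf2 (permutation p = 0.0162, adjusted p = 0.163), 0.651 for Suz12 (permutation p = 0.0858, adjusted p = 0.295) and 0.378 for Ring1 (permutation p = 0.353, adjusted p = 0.664). No relation of the 55 passed among these 8 libraries.

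**Figure D4:**
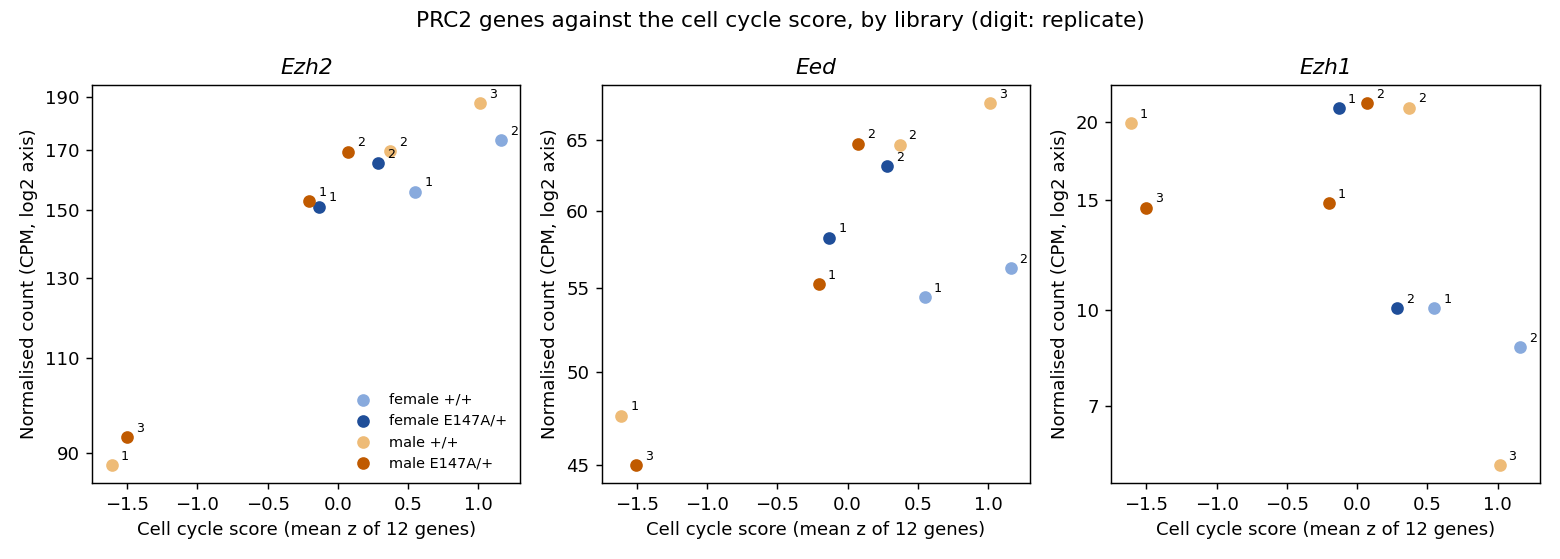
Normalised count (CPM, log2 axis) of Ezh2, Eed and Ezh1 against the cell cycle score (mean z-score of 12 proliferation genes), with 1 point per library. For Ezh2 the male E147A/+ 3 and male +/+ 1 libraries lie at 93.1 and 87.7 CPM, away from the other 8 at 151.0 to 187.8.

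The genes whose pattern over the 10 libraries was most like that of Ezh2, among the 17110 tested, were Ndc1 (r = 0.984), a nuclear pore gene, Mcm3 (r = 0.983), a replicative helicase gene that is also in the score, and Exo1 (r = 0.983), a DNA repair exonuclease gene. For Ezh1 they were Zswim3 (r = 0.978), Atg2b (r = 0.975), an autophagy gene, and Fbxl20 (r = 0.975), which encodes an F-box protein. These were the highest of 17110 values each and are given without a test.

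The proliferation genes themselves had lower estimates in E147A/+. All 12 had negative log2 fold changes over both sexes, with a median of -0.27 beside -0.01 for all genes. Of all genes tested 48.0% had a positive estimate. In edgeR's test 0 of the 12 passed, against 0.0818% of all genes. An unadjusted p under 0.05 was found, against 5.9% of all genes, for 1 of the 12. That was Mki67, a marker of cycling cells, at -0.53 (SE 0.18, adjusted p 0.748). Scores were -0.131 and 0.284 in female E147A/+ against 0.549 and 1.16 in female +/+, and -0.204, 0.072 and -1.50 in male E147A/+ against -1.61, 0.370 and 1.01 in male +/+. Their part in the genotype values of Ezh2 was not tested. Of 5 oligodendrocyte lineage markers 0 passed, against 0.0818% of all genes. Of the 5, 2 had positive and 3 negative estimates, beside 48.0% positive among all genes. The receptor gene Pdgfra ranged from 2.84 to 85.1 CPM over the 10 libraries and was at -2.38 (SE 0.48, unadjusted p 0.000598, adjusted p 0.249 in edgeR's test), and the transcription factor gene Sox10 was at -2.29 (SE 0.76, unadjusted p 0.013, adjusted p 0.727). Olig2, another factor of that lineage, was high in every library, at 484.4 to 680.3 CPM, with a log2 fold change of 0.05 (SE 0.12). The markers summed to 673.6 to 687.2 CPM in female E147A/+, 627.7 to 708.8 in female +/+, 506.7 to 676.9 in male E147A/+ and 627.7 to 704.9 in male +/+. Their part in the values of the Polycomb genes was not tested.

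The labels also gave the litter of each culture. In a fit with litter beside the group means, 0 of the 10 genes passed between litter 3 and litter 1, against 0.111% of all genes (19 of 17110, all lower in litter 3). No female group held both litters, so this contrast rests on males. They are male E147A/+ 3 and male +/+ 3 against male E147A/+ 1, male E147A/+ 2 and male +/+ 2. That background depends on the method, with 1187 of all genes called by DESeq2 and 0 by limma-voom, and on single libraries, with 0 called without male E147A/+ 2, male E147A/+ 3, male +/+ 2 or male +/+ 3. An unadjusted p under 0.05 was reached by Ezh1 and Rnf2, 2 of the 10, against 17.0% of all genes. By edgeR's quasi-likelihood test Ezh1 was at -0.95 on the log2 scale (SE 0.40, adjusted p 0.29) and Rnf2 at 0.47 (SE 0.18, adjusted p 0.262). The Ezh1 estimate moved from -1.90 to -0.31 and the Rnf2 estimate from 0.28 to 0.72 as single libraries were left out.

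The 4 female libraries also carried counts assigned to the 129 or the Cast allele, and for the 10 genes these held 90 to 2951 counts a library. The Cast share was either close to equal or close to 0. In 13 of the 40 pairs of gene and library it lay between 40.3% and 56.9%, and in the other 27 it was at most 4.64%. The labels give every embryo a Castaneus father, from which a Cast copy of each autosomal gene would follow, so the 27 low shares go against that description at these loci. In all 40 pairs the class was that of the median share of genes with allelic counts within 2 Mb on either side, so the low shares belonged to chromosome stretches and not to the Polycomb genes alone.

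Ezh2 had a Cast share close to equal only in female E147A/+ 1, at 54.96% (95% Wilson interval 53.0 to 56.9, from 2589 counts). The share was 0.102% to 0.467% in the other 3 females. The level of Ezh2 in female E147A/+ 1, 151.0 CPM, was the lowest of the 4 females, which lay between 151.0 and 173.7. Bmi1 had shares close to equal in 3 libraries. They were 47.0% (44.8 to 49.2) in female E147A/+ 2 and 45.6% in each +/+ library (42.4 to 48.8 and 43.0 to 48.3). These upper bounds are below 50%, so the 129 allele gave more counts than the Cast allele. The median share of neighbouring genes in the same 3 libraries was also below 50%, at 43.3%, 37.25% and 41.9%. Eed had 56.9% (52.7 to 61.0) in female E147A/+ 1 and 50.6% (45.8 to 55.3) in female +/+ 2. Rnf2 had 40.3% (35.3 to 45.5) in female E147A/+ 2 and 46.5% (41.0 to 52.2) in female +/+ 1. Jarid2 had shares close to equal in the same pair of libraries, with 46.3% and 54.2%, and Pcgf5 in female E147A/+ 2 with 48.0%. Suz12, Ezh1 and Pcgf3 had a Cast share of at most 4.64% in all 4 libraries. Intervals cover counting error only, and the way reads were assigned to alleles was not stated.

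Ring1 was the one gene of the 10 whose allele pattern followed genotype in these 4 embryos. Its Cast share was 41.4% (34.3 to 49.0) and 44.7% (38.7 to 50.8) in female +/+. In female E147A/+ it was 0% (0 to 1.39, 0 of 272 counts) and 0.350%. Smchd1, on the same chromosome 17, had 48.8% and 47.6% in +/+ and 0.379% and 0.111% in E147A/+. The median share of genes within 2 Mb of Ring1 split alike, at 0.197% and 0% in E147A/+ and 48.8% and 48.5% in +/+. How many of all genes follow genotype in this way was not counted. Genotype and parental strain at Ring1 cannot be told apart. Ring1 levels were 23.0 and 22.6 CPM in female E147A/+ and 23.1 and 22.8 in female +/+.

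**Figure D5:**
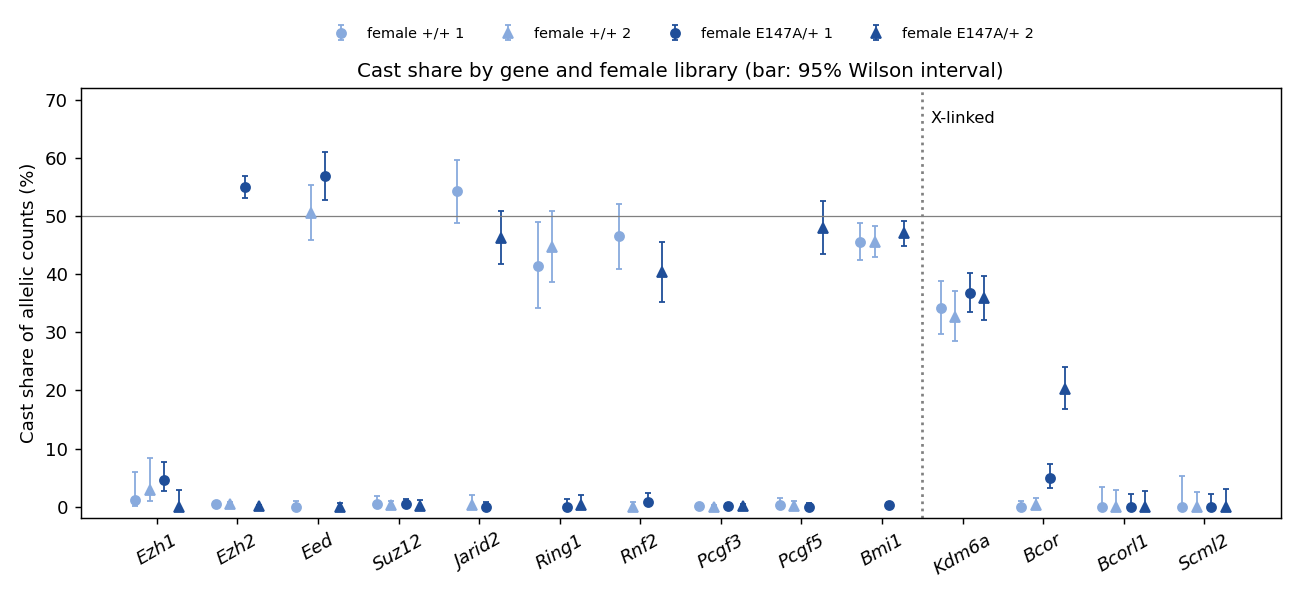
Cast share of allelic counts (percent, vertical axis) of the 10 Polycomb genes and of 4 X-linked Polycomb-related genes in the 4 female libraries, with 95% Wilson intervals. Shares of the autosomal genes lie near 0 or between 40.3% and 56.9%, and Bcor is above 0 mainly in the E147A/+ libraries. Rbbp7, X-linked and with few allelic counts, is not shown.

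Genes of the pathway that lie on the X chromosome bear on the silencing that SMCHD1 serves. Bcor, a scaffold of a variant PRC1, had Cast shares of 4.93% (3.28 to 7.36, 22 of 446 counts) and 20.2% (16.9 to 24.01, 98 of 485) in female E147A/+. In female +/+ it had 0% (0 of 359 counts, where 3 counts would be 0.836%) and 0.266% (1 of 376). Both mutant shares were above both wild-type shares. How many of all X-linked genes separate in this way was not counted, so Bcor has no background here. The median share of genes within 2 Mb was also higher in E147A/+ at 3.67% and 6.25% than in +/+ at 0.222% and 0.242%. With 2 libraries against 2 the smallest p an exact two-sided permutation test can give is 0.3333, so none was run. Total Bcor was 53.9 and 60.6 CPM in E147A/+ and 59.6 and 54.0 in +/+, a female log2 difference of 0.01 (SE 0.21) that did not pass edgeR's quasi-likelihood test (adjusted p 0.998). Kdm6a, which removes the PRC2 mark and is known to escape X inactivation, had Cast shares of 36.8% and 35.9% in E147A/+ and 34.1% and 32.6% in +/+, with overlapping intervals. Bcorl1, a BCOR paralog, and Scml2, a canonical PRC1 partner, had 0 Cast counts in all 4 libraries, from 68 to 179 allelic counts each. Rbbp7, a histone-binding PRC2 subunit, had only 17 to 75 allelic counts and shares of 4.65% to 18.2% with wide intervals.

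Other Polycomb genes were read from lists by role, 40 genes in all, and 0 of the 40 passed edgeR's test over both sexes, against 0.0818% of all genes. An unadjusted p under 0.05 was found for 3 of the 40 and for 5.9% of all genes. Of all 17110 genes 48.0% had a positive log2 fold change, the background for the counts that follow. Of 7 further PRC2 subunits and partners, 4 had positive and 3 negative log2 fold changes, from -0.25 for Phf19 to 0.27 for Phf1. The other PCGF genes, Pcgf1, Pcgf2 and Pcgf6, were at 0.21 (SE 0.18), 0.47 (SE 0.42) and 0.17 (SE 0.20). Of 10 canonical PRC1 genes 8 were positive, among them Cbx7, a reader of the lysine 27 mark, at 0.51 (SE 0.38). Of 13 variant PRC1 genes 8 were positive, with Auts2, which links PRC1 to activation in neurons, at 0.42 (SE 0.27).

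Of 7 genes that remove the Polycomb marks, 2 were positive. Kdm6b, a demethylase of lysine 27, was at 0.58 (SE 0.25, unadjusted p 0.0424, adjusted p 0.821 in edgeR's test), and Bap1, the H2A deubiquitinase, at -0.18 (SE 0.11, adjusted p 0.821). Uty, the Y-linked relative of Kdm6a, was at -1.33 with an adjusted p of 0.547, a value to which traces of 0.0231 to 0.446 CPM in females contribute. Between female +/+ and male +/+ it was called, at -7.15 (adjusted p 0.000275 in edgeR's test). On the Xist path, Lrif1, which encodes a partner of SMCHD1, was at 0.43 (SE 0.29) and Xist, the RNA that coats the inactive X, at 0.38 (SE 0.44), and neither passed. To the Xist value males contribute traces of 0.0665 to 0.536 CPM. In females Xist had 2291 and 1303 CPM in E147A/+ and 983.7 and 1259 in +/+. The female log2 fold change was 0.68 (SE 0.51, adjusted p 0.964 in edgeR's test).

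Most of the listed genes that Polycomb keeps silent in many tissues gave little signal. Exceptions were Cdkn2b, at 9.53 to 61.7 CPM, Nkx2-2, at 7.35 to 31.05, and Cdkn2a, at 2.77 to 43.9. Of 39 Hox genes 29 had 0 counts in every library, and no count exceeded 4, so none could be tested. Of 15 developmental and cell cycle inhibitor targets only 4 passed the filter, namely Cdkn2a, Cdkn2b, Nkx2-2 and Pax7, and 0 passed the threshold by genotype. Cdkn2a, the INK4A and ARF locus that BMI1 represses, had 13.03 and 43.9 CPM in female E147A/+ and 22.6 and 10.1 in female +/+. In mutant males it had 10.98, 6.93 and 28.1 CPM and in wild-type males 10.5, 2.77 and 34.7. The groups overlapped in both sexes, and the log2 fold change was 0.37 (SE 0.66). In litter 3 against litter 1, edgeR's quasi-likelihood test gave log2 fold changes of 2.50 (SE 0.57, adjusted p 0.129) for Cdkn2a and 2.17 (SE 0.43, adjusted p 0.108) for Cdkn2b, the neighbouring inhibitor gene, neither of which passed. Bmi1 in the same contrast was at -0.03 (SE 0.33). That contrast rests on the males of both litters, as given above.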

How the data were processed

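Per the submitters' processing notes, reads were handled with Trim Galore 0.4.4, HISAT2 2.0.5, featureCounts, R 3.5.1 and edgeR 3.24.0 on GRCm38/mm10. The deposited table gives raw counts by gene in 10 libraries, and in the 4 female ones also by allele. The libraries were made with a stranded kit, per the labels' protocols, and whether counting used strand is not given in the sources used here. Exons of Ezh2, Eed, Suz12, Rnf2 and Pcgf5 overlap a gene on the opposite strand by 60 to 261 bases, so those counts are uncertain to that extent. No per-sample column was left unused.

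Genes were kept by filterByExpr, normalised by TMM and tested with edgeR 4.0.16 (R 4.3.3, quasi-likelihood test), with a mean for each group and all 10 libraries in 1 fit of 6 residual degrees of freedom, or 3 with litter added. p-values were adjusted by Benjamini-Hochberg over all 17110 genes. Standard errors (SE) were derived from the fold change and the F statistic. Log2 CPM used a prior count of 2. Exon and coding lengths came from GENCODE, and promoters from RefSeq. Correlations used 100000 permutations and two-sided p-values. The 95% Wilson intervals and floors of 3 counts describe counting error.

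The 10 genes and all lists were chosen with earlier results of these data known. All 10 were named, with up to 3 genes of the lowest p from each other list, the X-linked Polycomb genes, Smchd1, and the 3 genes nearest to Ezh2 and to Ezh1. One gene that this rule would name is not reported here. The litter values of the Cdkn2 genes were added after their values were seen. Alternatives were RLE, DESeq2 1.42.0, limma-voom (limma 3.58.1) with quality weights, 2 other filters, fits of single sexes, a litter covariate, a replicate block and leaving out libraries. The methods were tested on simulated data.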

Additional observations from a re-analysis of the deposited data

How the results depend on the processing

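Under every alternative run, 0 of the 10 Polycomb genes were called in each comparison. The 40 other listed Polycomb genes were run under alternatives over both sexes only, and 0 were called. Counts over all genes moved more. Over both sexes, against 14, they were 113 with DESeq2, 29 with limma-voom, 33 without a filter, 9 with at least 10 counts in every library, 3 with litter as a covariate, 7 without male E147A/+ 3 and male +/+ 1, and 2 to 12 leaving out single libraries. Between litters, against 19, they were 1187 with DESeq2, 0 with limma-voom, 1407 without a filter and 0 to 19 leaving out single libraries. Estimates near 0 changed sign. Ezh2 over both sexes was 0.0048 with limma-voom, -0.50 with litter as a covariate and -0.2141 to 0.0293 leaving out single libraries. Eed was -0.22 with litter as a covariate, -0.0024 without male E147A/+ 3 and male +/+ 1, a pair chosen after seeing the data, and -0.0677 to 0.0658 leaving out single libraries. Jarid2 was 0.06 with limma-voom, 0.0075 with at least 10 counts in every library, 0.13 without that pair, and -0.0708 to 0.0658 leaving out single libraries. Rnf2 was 0.038 and Pcgf5 -0.22 with litter as a covariate. Bmi1 was 0.14 with limma-voom, -0.25 with litter as a covariate and -0.14 to 0.15 leaving out single libraries. Leaving out single libraries, Suz12 was -0.29 to -0.018, Rnf2 -0.29 to -0.11, Ring1 -0.11 to -0.04 and Ezh1 over both sexes 0.12 to 0.66. Ezh1 in males was -0.27 to 0.41 leaving out single libraries. The cause was not tested.

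The count of relations past the threshold, 2 in all 10 libraries, was 0 without that pair and 0 to 4 leaving out single libraries. It was 0 without male E147A/+ 1, male +/+ 1 or male +/+ 3. Ezh2 against the cell cycle score had r = 0.763 without the pair and 0.908 to 0.961 leaving out single libraries. The ratio of Rnf2 to Ring1 was 4.341 by coding length.

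Replicate numbers were not taken as pairs in the main fit. Deviations of same-numbered libraries correlated at -0.304 in females and at -0.238, 0.416 and 0.034 in males. Unlike numbers gave 0.304 in females and -0.39 to 0.295 in males. Deviations within each female group mirror each other, so the female value cannot show whether numbers pair. Male replicates 2 were both of litter 1 and male replicates 3 both of litter 3. With the replicate block 0 of the 10 genes were called, and Ezh1 over both sexes was at 0.47 (adjusted p 0.89 in edgeR's test). The crossed female pairing, added after seeing the data, also called 0, with 5 genes of all 17110 called in the first block and 6 in the crossed one. The lowest count of the 10 genes was 167, for Ezh1 in male +/+ 3.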

Other observations

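Regulators outside the 10 genes varied between cultures too. Cbx7, a canonical PRC1 reader, had 9.54 and 7.10 CPM in female E147A/+ and 3.95 and 3.96 in female +/+, and ran from 2.86 to 10.3 in males. All 4 libraries of litter 3 lay between 2.86 and 4.08 CPM, below the 7.10 to 10.3 of the other 6. How many of all genes separate litter 3 in this way was not counted. Between litters 3 and 1, 17.0% of all genes had an unadjusted p under 0.05 in edgeR's test. The log2 fold change of litter 3 against litter 1, which rests on males only, was -1.53 (SE 0.31). It did not pass edgeR's quasi-likelihood test (adjusted p 0.108). Cdkn2b, a cell cycle inhibitor of the same locus as Cdkn2a, was highest in male E147A/+ 3 at 61.7 CPM, female +/+ 1 at 53.3 and male +/+ 3 at 51.7, all of litter 3. The remaining litter 3 library, female +/+ 2, had 19.3 CPM, within the 9.53 to 38.0 of the other litters. Both genes were picked for this paragraph with their values in view.

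Kdm6a was higher in females, at 58.9 to 72.3 CPM, than in males, at 35.97 to 47.9, and the ranges did not overlap. The log2 fold change of female +/+ over male +/+ was 0.51 (SE 0.17, adjusted p 0.999 in edgeR's quasi-likelihood test). Its Y-linked relative Uty had 28.8 to 53.2 CPM in males.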
